A study of Homo sapiens with 8 samples.

Results

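The 48 genes described here are MYC and 47 genes for proteins that make ribosomes, taken by gene symbol from a table of 19158 genes measured in A549 cells. All 48 were found, and all 48 passed the filter on low values. The genes were named by symbol, with no threshold on a measured value, but with earlier results of these data known. A549 is a line of human lung adenocarcinoma cells of epithelial type, labelled WT in genotype in all 8 libraries. The untreated group (labelled NT) and the group given dexamethasone at 1 µM for 48 h each held 4 wells, numbered replicates 1, 3, 4 and 5, and all 8 libraries carry the same batch label, 1. Dexamethasone is a synthetic glucocorticoid that acts through the glucocorticoid receptor. The wells come from a single cell line, so the p-values below measure the spread between these wells only.

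Ribosomes are built in the nucleolus. RNA polymerase I transcribes the ribosomal RNA precursor there, small nucleolar ribonucleoproteins (snoRNPs) guide its methylation and pseudouridylation, and many assembly factors cut and fold it into the small and the large subunit. MYC is a transcription factor that pairs with MAX, binds the DNA sequence called the E-box, and is known as a regulator of many genes for ribosome production in growing cells.

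Values are given as FPKM (fragments per kilobase of transcript, scaled to library depth), a unit inferred from the deposited numbers. Fold changes are dexamethasone against untreated, on the log2(FPKM + 1) scale after scaling between libraries, which understates the change of low genes. Each adjusted p comes from limma with Benjamini-Hochberg adjustment over all 12153 tested genes. A gene is described as called, lower or higher where its adjusted p was under 0.05. FPKM are relative to each library, and in bulk RNA fewer cells expressing a gene and less RNA per cell cannot be told apart.

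An estimated 24850000 to 28660000 fragments lay behind each library. This estimate is rough, since whole fragment counts could not be recovered from the values. FKBP5, an established glucocorticoid-induced gene, had 3.28 to 7.30 FPKM in the untreated wells and 87.3 to 166 FPKM in the treated wells. All 6 epithelial markers were detected, EPCAM at only 0.140 to 0.765 FPKM, and their summed FPKM was 3470 to 5092 in untreated and 4558 to 6920 in treated wells. The 4 fibroblast and 3 endothelial markers stayed under 0.5 FPKM in every library, with summed levels of 0.0347 to 0.137 (untreated) and 0.201 to 0.421 (treated) FPKM for fibroblast and 0.0692 to 0.176 and 0 to 0.0327 FPKM for endothelial markers. Of the 3 immune markers found, PTPRC and CD3E were listed at 0 throughout, and CD14 gave sums of 2.01 to 3.14 FPKM in untreated and 1.19 to 1.56 FPKM in treated wells. The part of these markers in the results was not tested. Both libraries numbered 5 stood apart from the others in a way that followed GC content, and both libraries numbered 1 stood apart in MYC. Values without them are given below.

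MYC did not differ between the groups beyond the spread of the wells. MYC (ENSG00000136997, chr8:127735434-127741434, plus strand, GRCh38) had 24.4, 3.32, 2.87 and 3.96 FPKM in untreated replicates 1, 3, 4 and 5. In dexamethasone replicates 1, 3, 4 and 5 it had 23.7, 4.12, 4.06 and 3.94 FPKM. Replicate 1 was far above the rest in both groups, and the groups overlapped. On the log2 scale MYC differed by 0.13 (SE 0.68, limma adjusted p = 0.902). This SE includes the high level that replicate 1 had in both groups.

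The 2 libraries numbered 1 averaged 24.1 FPKM of MYC, 6.48 times the mean of 3.71 FPKM in the other 6 libraries, which spanned 2.87 to 4.12 FPKM. Of the 19158 genes, MYC was the only gene at 1 FPKM or more that was at least 2-fold higher in both libraries numbered 1 than in every other library, and 0 genes were at least 2-fold lower there. The same search gave 0 higher and 2 lower genes for number 3, 0 and 2 for number 4, and 2 and 23 for number 5. With both libraries numbered 1 left out, MYC was at 3.38 ± 0.544 FPKM in untreated and 4.04 ± 0.0917 FPKM in treated wells (SD, n = 3 each), and the fold change was 0.22 on the log2 scale (limma adjusted p = 0.528). Leaving out single libraries moved the MYC fold change between -0.42, without dexamethasone replicate 1, and 0.75, without untreated replicate 1. The median deviation of the 48 members from the mean of their group, on the log2 scale, was -0.01 in untreated replicate 1 and -0.02 in dexamethasone replicate 1. It differed by the GC content of the transcript: -0.11 and -0.15 in these libraries for the 21 members of at least 50% GC, and 0.07 and 0.14 for the 27 below it.

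**Figure D1:**
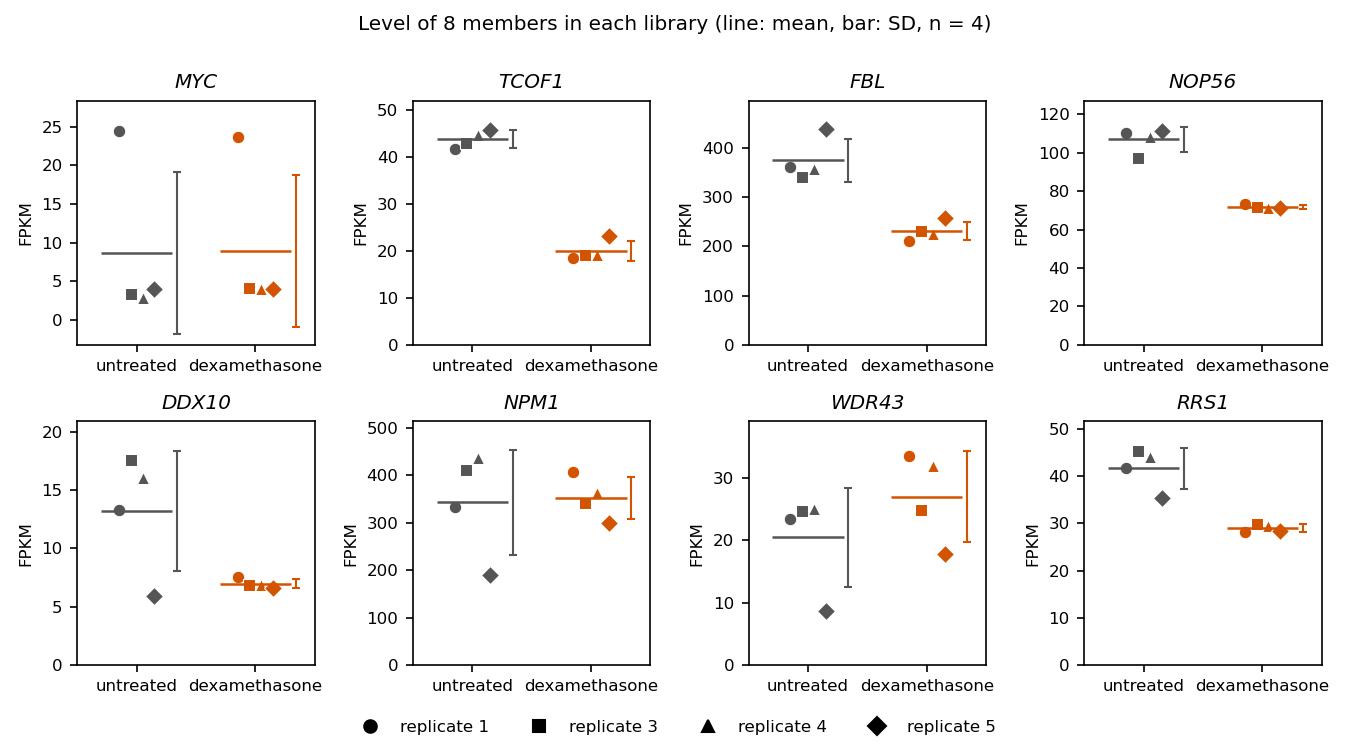
FPKM of 8 members in each library (y axis, linear), with untreated wells in grey and dexamethasone wells in orange, marker shape for the replicate number, a line at the mean and a bar for the SD (n = 4). MYC is at 24.4 and 23.7 FPKM in the replicates numbered 1 and at 4.12 FPKM or less elsewhere. TCOF1 is at 41.6 FPKM or more in every untreated well and at 23.2 FPKM or less in every treated well. In these values, as deposited, untreated replicate 5 is the lowest untreated well for DDX10, NPM1, WDR43 and RRS1. After scaling between libraries it is the highest untreated well for RRS1.

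After dexamethasone 16 of the 48 members were lower and 0 were higher, while 32 were not called. Of all tested genes, 14.8% were called lower and 12.2% higher, against 33.3% of the members called lower. The median log2 fold change of the members was -0.30 and that of all tested genes 0.00, with members ranging from -1.11 for TCOF1 to 0.46 for NOC3L. Fold changes were below 0 for 32 of the 48 members and for 49.7% of all tested genes. An unadjusted p under 0.05 was reached by 23 members, all lower, where 20.8% of all tested genes were lower at that p and 18.5% higher. The scaled values of the groups did not overlap for 18 members, all lower in treated wells, where 17.5% of tested genes were lower without overlap and 14.1% higher. For 3 of these 18 (NOLC1, GAR1 and PNO1) the FPKM as deposited did overlap, through untreated replicate 5. With the replicate number as a block, 26 members were called lower and 2 higher. In that setting 24% of all tested genes were called lower, and 5769 genes were called in either direction. The numbers were not taken to pair the wells, so the counts without a block are the main ones. These counts treat variation shared by same-numbered wells, such as the GC shift of both libraries numbered 5, as spread between wells.

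The number of calls changed with single libraries, among the members and among all genes. The fold changes of all 16 called members were below 0 in each of the 19 other settings run. These settings reuse the libraries in which the 16 were called lower, so the kept sign is not an independent check. With single libraries left out, 16 members were called lower without untreated or dexamethasone replicate 5, but 8 without untreated replicate 1, 9 without untreated replicate 3, 8 without untreated replicate 4, 6 without dexamethasone replicate 1, and 5 without dexamethasone replicate 3 or 4. The share of all tested genes called lower was 16.1% and 16% without untreated and dexamethasone replicate 5, 11.6%, 12.3% and 12.6% without untreated replicates 1, 3 and 4, and 10.4%, 10.6% and 10.1% without dexamethasone replicates 1, 3 and 4. Called in each of these 8 omissions were TCOF1, UBTF, MRTO4, RRS1 and PPAN. With both libraries numbered 1 left out, 1 member (TCOF1, limma adjusted p = 0.0169) was called lower and 0 higher, where 6.6% of tested genes were lower and 6.4% higher. The other 15 had fold changes below 0 there, with adjusted p of 0.0628 for UBTF, 0.0637 for PPAN, 0.0684 for MRTO4, 0.0942 for RRS1 and 0.152 to 0.284 for the rest.

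**Figure D2:**
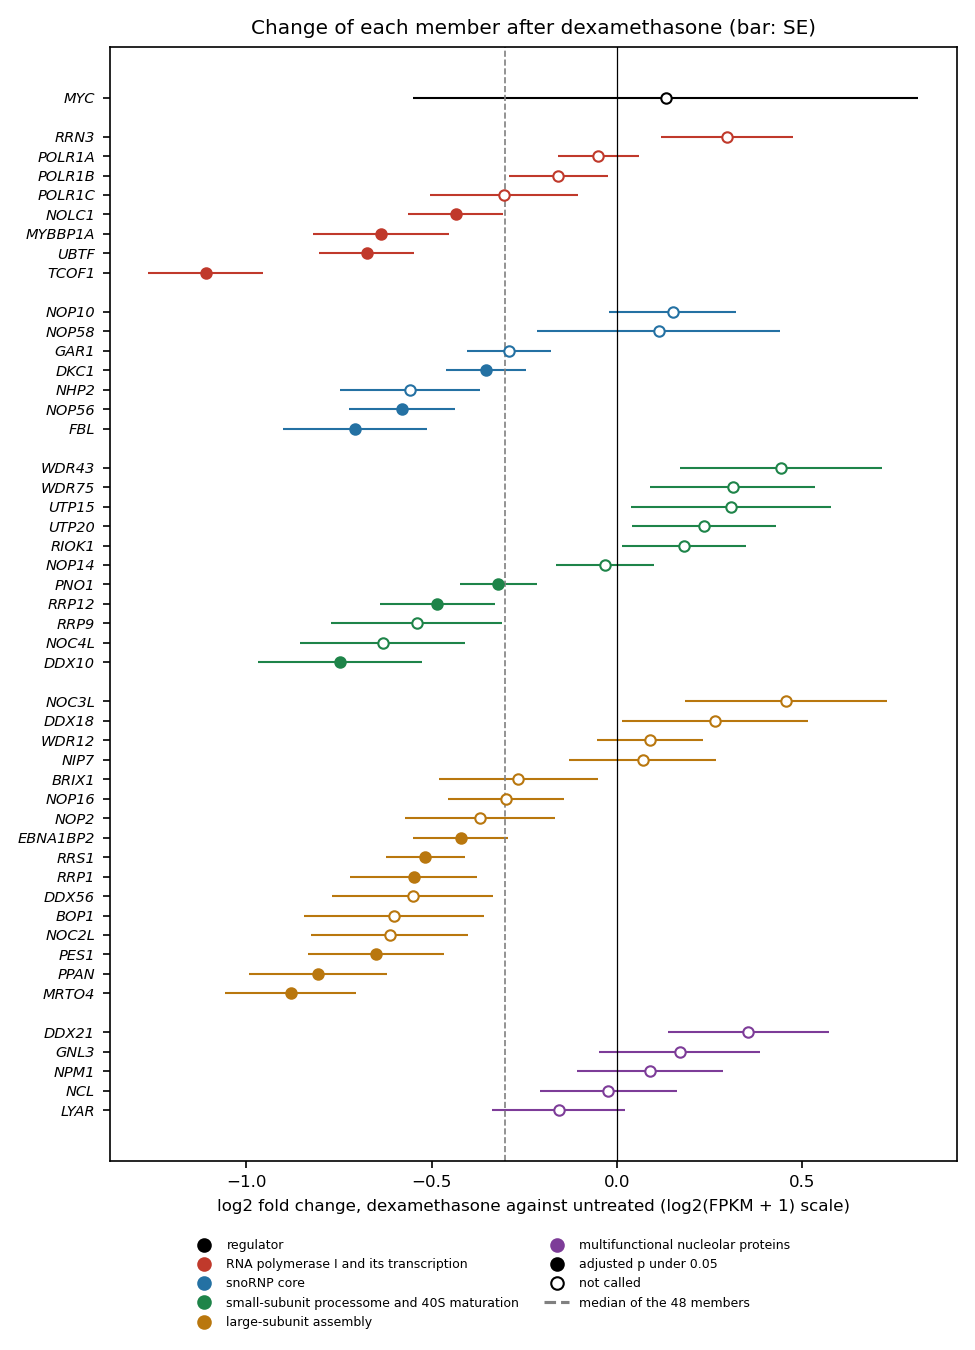
Log2 fold change of each of the 48 members (x axis, dexamethasone against untreated) with its SE as a bar, grouped by role and coloured by it; filled points have a limma adjusted p under 0.05. The 16 filled points all lie below 0, and the dashed line marks the members' median of -0.30.

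Among the 8 members that act in RNA polymerase I transcription, 4 were lower, 0 were higher and the median log2 fold change was -0.37. TCOF1 (ENSG00000070814, chr5:150357629-150400308, plus strand) encodes treacle, a nucleolar protein that brings RNA polymerase I factors to the ribosomal RNA genes. TCOF1 had 41.6, 42.9, 44.7 and 45.8 FPKM in untreated replicates 1, 3, 4 and 5, and 18.5, 19.1, 19.2 and 23.2 FPKM in the dexamethasone replicates. Every treated well was far below every untreated well, and TCOF1 fell by 1.11 on the log2 scale (SE 0.16, adjusted p = 0.000681). Without both libraries numbered 1 it fell by 1.06 (adjusted p = 0.0169).

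UBTF (ENSG00000108312, chr17:44205033-44221626, minus strand), the upstream binding factor that coats active ribosomal RNA genes, had 39.8, 42.2, 41.6 and 38.7 FPKM in untreated replicates 1, 3, 4 and 5, and 24.3, 25.3, 24.1 and 27.6 FPKM in treated ones. The groups did not overlap, and UBTF fell by 0.67 on the log2 scale (SE 0.13, adjusted p = 0.00382; 0.0628 without both libraries numbered 1). MYBBP1A (ENSG00000132382, chr17:4538897-4555631, minus strand), a nucleolar protein named for its binding to MYB, had 71.6, 70.4, 67.3 and 85.9 FPKM without and 43.2, 46.2, 47.2 and 53.3 FPKM with dexamethasone. Replicate 5 was the highest well of each group and the groups did not overlap. MYBBP1A fell by 0.64 on the log2 scale (SE 0.18, adjusted p = 0.0286), and its adjusted p was 0.0574 to 0.106 without untreated replicate 1 or without dexamethasone replicate 1, 3 or 4.

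NOLC1 (ENSG00000166197), a chaperone of snoRNPs that also binds RNA polymerase I, had 56.1, 57.6, 55.6 and 40.5 FPKM in untreated and 44.7, 37.8, 43.2 and 30.2 FPKM in treated replicates 1, 3, 4 and 5. Replicate 5 was the lowest well of each group. The NOLC1 log2 fold change was -0.43 (SE 0.13, adjusted p = 0.0317), with an adjusted p of 0.0604 to 0.0982 in 6 of the 8 omissions of 1 library: each of untreated replicates 1, 3 and 4 and of dexamethasone replicates 3, 4 and 5.

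None of the 3 polymerase subunits among the members was called with all 8 libraries. POLR1A (ENSG00000068654, chr2:86020216-86106155, minus strand), the largest catalytic subunit, had 26.5, 27.7, 25.4 and 22.6 FPKM in untreated and 25.2, 26.0, 23.7 and 24.4 FPKM in treated replicates 1, 3, 4 and 5. The wells of both groups lay over each other (log2 fold change -0.05, SE 0.11, adjusted p = 0.749). POLR1B, the other catalytic subunit, POLR1C, a subunit shared with RNA polymerase III, and the initiation factor RRN3 had log2 fold changes from -0.30 to 0.30 (adjusted p 0.24 to 0.4). POLR1C was called lower with both libraries numbered 5 left out (log2 fold change -0.31, adjusted p = 0.0286), and POLR1B with the GC trend of each library removed (-0.33, adjusted p = 0.00927). RRN3 has pseudogenes of near-identical sequence, so its value is uncertain.

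Of the 7 core snoRNP proteins 3 were lower, 0 were higher, and the median log2 fold change was -0.35. The box C/D proteins methylate ribosomal RNA. FBL (ENSG00000105202, chr19:39834458-39846414, minus strand) encodes fibrillarin, their methyltransferase, and had the highest mean level of the untreated wells among the members, 376 ± 43.6 FPKM (SD, n = 4). FBL had 363, 342, 359 and 440 FPKM in untreated replicates 1, 3, 4 and 5 and 212, 231, 226 and 258 FPKM in treated ones. No treated well reached an untreated well, and FBL fell by 0.71 on the log2 scale (SE 0.19, adjusted p = 0.0235; 0.179 without both libraries numbered 1).

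NOP56 (ENSG00000101361, chr20:2652145-2658393, plus strand), a scaffold of the same particles, had 110, 97.5, 108 and 111 FPKM without and 73.1, 71.7, 71.4 and 71.0 FPKM with dexamethasone. The 4 treated wells lay close together, all below the untreated wells. The NOP56 log2 fold change was -0.58 (SE 0.14, adjusted p = 0.0146). Without dexamethasone replicate 1, 3 or 4 the adjusted p was 0.0791 to 0.0929 for FBL and 0.0581 to 0.0637 for NOP56. NOP58 (ENSG00000055044, chr2:202265716-202303666, plus strand), the partner scaffold of NOP56, had 13.9, 20.3, 21.2 and 5.16 FPKM in untreated and 19.2, 14.1, 17.6 and 9.73 FPKM in treated replicates 1, 3, 4 and 5. Replicate 5 was lowest in each group, the groups overlapped, and NOP58 differed by 0.11 on the log2 scale (SE 0.33, limma adjusted p = 0.819).

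The box H/ACA proteins convert uridine to pseudouridine. DKC1 (ENSG00000130826, chrX:154762742-154777689, plus strand) encodes dyskerin, the pseudouridine synthase, which also binds telomerase RNA. DKC1 had 36.4, 35.1, 35.4 and 28.1 FPKM in untreated replicates 1, 3, 4 and 5 and 26.6, 24.8, 27.9 and 25.9 FPKM in treated ones. As deposited, untreated replicate 5 lay just above the highest treated well. After scaling between libraries it was not the lowest untreated well. DKC1 fell by 0.35 on the log2 scale (SE 0.11, adjusted p = 0.0356), with an adjusted p of 0.0771 to 0.142 without untreated replicate 1, 3 or 4 or without dexamethasone replicate 1, 3 or 4.

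The other H/ACA proteins did not pass the threshold with all 8 libraries, and NHP2 and GAR1 passed it in other settings. NHP2 had 156, 156, 157 and 210 FPKM in untreated and 114, 119, 120 and 107 FPKM in treated replicates 1, 3, 4 and 5; the groups did not overlap, and its log2 fold change was -0.56 (SE 0.19, adjusted p = 0.0547). NHP2 was called lower with both libraries numbered 5 left out (log2 fold change -0.36, adjusted p = 0.00424) and with the GC trend removed (-0.35, adjusted p = 0.0309). GAR1 was at 15.9 ± 2.66 FPKM in untreated and 12.8 ± 0.419 FPKM in treated wells (SD, n = 4; log2 fold change -0.29, adjusted p = 0.0845), and was called lower without the libraries numbered 5 (adjusted p = 0.0185) and with the GC trend removed (adjusted p = 0.0123). NOP10 was at 175 ± 15.1 and 196 ± 12.8 FPKM (SD, n = 4; log2 fold change 0.15, adjusted p = 0.538).

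Small-subunit factors were split. Of 11 members, 3 were lower and 0 higher, 5 had fold changes above 0, and the median log2 fold change was -0.03. DDX10 (ENSG00000178105, chr11:108665025-108940930, plus strand), a DEAD-box RNA helicase, had 13.3, 17.6, 16.04 and 5.91 FPKM in untreated and 7.53, 6.90, 6.87 and 6.62 FPKM in treated replicates 1, 3, 4 and 5. As deposited, untreated replicate 5 lay below all treated wells, while the other untreated wells lay well above them. After scaling between libraries, untreated replicate 5 lay within the range of the treated wells. DDX10 fell by 0.75 on the log2 scale (SE 0.22, adjusted p = 0.0332), and with both libraries numbered 5 left out by 0.99 (adjusted p = 0.000196).

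RRP12 (ENSG00000052749, chr10:97356358-97426076, minus strand), an export and maturation factor, had 31.3, 32.3, 30.2 and 35.02 FPKM without and 21.1, 22.1, 23.7 and 25.0 FPKM with dexamethasone. The groups did not overlap, and the RRP12 log2 fold change was -0.48 (SE 0.16, adjusted p = 0.0451). PNO1 (ENSG00000115946, chr2:68157844-68176238, plus strand), an RNA-binding factor of late small-subunit maturation, had 23.6, 24.3, 25.0 and 18.0 FPKM in untreated and 18.5, 19.2, 19.0 and 15.6 FPKM in treated replicates 1, 3, 4 and 5. Replicate 5 was the lowest well of each group and, as deposited, brought the groups into overlap. PNO1 fell by 0.32 on the log2 scale (SE 0.10, adjusted p = 0.0466). Each of these calls was lost in 7 of the 8 omissions of 1 library, every omission but untreated replicate 5 for DDX10 (adjusted p 0.0520 to 0.0799) and PNO1 (0.0838 to 0.123), and every omission but dexamethasone replicate 5 for RRP12 (0.0592 to 0.152).

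NOP14 (ENSG00000087269, chr4:2937933-2963385, minus strand), a scaffold protein of the early precursor, had 21.1, 19.4, 19.9 and 18.9 FPKM in untreated and 18.7, 19.4, 18.6 and 21.6 FPKM in treated replicates 1, 3, 4 and 5. These wells overlapped almost fully (log2 fold change -0.03, SE 0.13, adjusted p = 0.874). WDR43, a WD-repeat component of the small-subunit processome, had 23.4, 24.7, 25.1 and 8.61 FPKM in untreated and 33.6, 24.8, 31.9 and 17.8 FPKM in treated wells. Replicate 5 was again lowest in both groups (log2 fold change 0.44, SE 0.27, adjusted p = 0.253); with both libraries numbered 5 left out WDR43 was the only member called higher (0.33, adjusted p = 0.0418). The other 6, NOC4L, RRP9, UTP15, UTP20, WDR75 and the kinase RIOK1, ranged from -0.63 to 0.31 (adjusted p 0.0632 to 0.443).

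In large-subunit assembly, the group with the most members, 6 of 16 were lower and 0 higher (37.5%, against 50% in RNA polymerase I transcription and 42.9% of the snoRNP core), with a median log2 fold change of -0.47. The role groups also differed in GC content, as given below. MRTO4 (ENSG00000053372, chr1:19251539-19260128, plus strand), which holds the place of the stalk protein P0 on the nuclear precursor, had 40.4, 38.8, 42.1 and 48.1 FPKM in untreated and 20.6, 21.4, 22.7 and 26.4 FPKM in treated replicates 1, 3, 4 and 5. The groups were far apart, and MRTO4 fell by 0.88 on the log2 scale (SE 0.18, adjusted p = 0.00548; 0.0684 without both libraries numbered 1). RRS1 (ENSG00000179041, chr8:66429028-66430733, plus strand), needed to bring the 5S particle into the precursor, had 41.8, 45.4, 44.01 and 35.4 FPKM without and 28.2, 29.9, 29.4 and 28.4 FPKM with dexamethasone. All treated wells lay below all untreated wells, and the RRS1 log2 fold change was -0.52 (SE 0.11, adjusted p = 0.00556; 0.0942 without both libraries numbered 1).

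PPAN (ENSG00000130810, chr19:10106289-10111634, plus strand), a Brix-domain assembly factor, had 21.7, 23.6, 23.1 and 27.3 FPKM in untreated and 15.3, 10.8, 17.2 and 11.1 FPKM in treated replicates 1, 3, 4 and 5. The groups did not overlap, and PPAN fell by 0.81 on the log2 scale (SE 0.19, adjusted p = 0.0111; 0.0637 without both libraries numbered 1). PPAN lies within a read-through gene with P2RY11 on the same strand, and NOP2 and RRS1 also overlap another protein-coding gene on their strand, so the counts of these 3 genes are uncertain. In all, 24 members overlap a gene on the opposite strand, and the use of strand in counting is not stated.

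PES1 and BOP1 encode proteins that work as a complex with WDR12 in large-subunit processing. PES1 had 66.3, 70.1, 80.1 and 79.0 FPKM in untreated and 40.9, 44.2, 46.5 and 58.2 FPKM in treated replicates 1, 3, 4 and 5, with no overlap. The PES1 log2 fold change was -0.65 (SE 0.18, adjusted p = 0.0273), with an adjusted p of 0.0698 to 0.104 without untreated replicate 4 or dexamethasone replicate 1, 3 or 4. BOP1 had 82.2, 83.4, 85.3 and 125 FPKM without and 51.2, 58.2, 61.6 and 76.3 FPKM with dexamethasone. Replicate 5 was the highest well of each group (log2 fold change -0.60, SE 0.24, adjusted p = 0.0966); BOP1 was called lower without the libraries numbered 5 (-0.50, adjusted p = 0.00316) and with the GC trend removed (-0.32, adjusted p = 0.0420). WDR12 was at 6.30 ± 1.55 and 6.72 ± 1.07 FPKM (SD, n = 4; log2 fold change 0.09, adjusted p = 0.662).

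EBNA1BP2 (log2 fold change -0.42, adjusted p = 0.0362) and RRP1 (-0.55, adjusted p = 0.0404), both nucleolar large-subunit factors, were the other called members here. The EBNA1BP2 call was lost in every omission of 1 library but dexamethasone replicate 5 (adjusted p 0.0531 to 0.134), and the RRP1 call without untreated replicate 1, 3 or 4 or dexamethasone replicate 1, 3 or 4 (0.0559 to 0.131). NIP7 (ENSG00000132603, chr16:69337996-69343111, plus strand), a late assembly factor, had 20.7, 11.6, 22.9 and 13.6 FPKM in untreated and 18.9, 19.0, 18.4 and 14.6 FPKM in treated replicates 1, 3, 4 and 5. Its treated wells lay inside the untreated range (log2 fold change 0.07, SE 0.20, adjusted p = 0.815). The other 7, NOC2L, NOC3L, NOP2, NOP16, BRIX1, DDX18 and DDX56, ranged from -0.61 to 0.46 (adjusted p 0.0587 to 0.456), 5 of them below 0.

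None of the 5 multifunctional nucleolar proteins was called by limma with all 8 libraries, and 0 had an unadjusted p under 0.05. Their median log2 fold change was 0.09. The transcripts of all 5 had 41.0% to 46.7% GC. Of all tested genes under 50% GC, 7.54% were called lower and 15.6% higher, with a median of 0.18. DDX21 (ENSG00000165732, chr10:68956128-68985073, plus strand), an RNA helicase that links polymerase I and II transcription, had 25.1, 36.6, 37.8 and 14.4 FPKM in untreated and 39.5, 33.1, 38.4 and 28.6 FPKM in treated replicates 1, 3, 4 and 5. The groups overlapped, with untreated replicate 5 lowest (log2 fold change 0.35, SE 0.22, adjusted p = 0.252). GNL3, which encodes the GTPase nucleostemin, had 19.0, 19.3, 22.3 and 8.50 FPKM without and 23.0, 17.5, 21.1 and 14.1 FPKM with dexamethasone. Its groups overlapped too (log2 fold change 0.17, SE 0.22, adjusted p = 0.587).

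LYAR, a zinc-finger nucleolar protein, had 4.05, 5.29, 4.70 and 2.88 FPKM in untreated and 4.36, 2.35, 4.72 and 3.49 FPKM in treated replicates 1, 3, 4 and 5. Dexamethasone replicate 3 was the lowest well of all (log2 fold change -0.16, SE 0.18, adjusted p = 0.541). NCL, which encodes nucleolin, had 134, 150, 155 and 72.0 FPKM without and 142, 111, 135 and 102 FPKM with dexamethasone. The NCL log2 fold change was -0.02 (SE 0.19, adjusted p = 0.938). NPM1, which encodes nucleophosmin, was at 343 ± 111 and 353 ± 44.3 FPKM (SD, n = 4, log2 fold change 0.09, limma adjusted p = 0.758). With the GC trend removed and both libraries numbered 5 left out, NPM1 was called lower (-0.23, limma adjusted p = 0.0422). NPM1 has many processed pseudogenes, so its value is uncertain.

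Several members host snoRNA genes in their introns, so that a single transcript can give both a nucleolar protein and a guide RNA. A snoRNA or scaRNA on the same strand lies within 8 members: 5 within NOP56, 4 within NOP58, 2 within DKC1, 3 within NCL, 6 within GNL3, 2 within PPAN, 3 within WDR43 and 1 within POLR1C. Of these 8 hosts, 3 (NOP56, DKC1 and PPAN) were lower after dexamethasone, and NOP58, NCL, GNL3, WDR43 and POLR1C were not called. Of all 48 members 33.3% were called lower, and of all tested genes 14.8%, so the hosts are not set apart from the members by this count. The DKC1 call was lost in 6 of the 8 omissions of 1 library, and POLR1C was called lower without the libraries numbered 5. The snoRNAs themselves were not analysed here.

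The promoters of the members were searched for the E-box that MYC and MAX bind, since MYC is the regulator of the group. RefSeq promoters (GRCh38.p14, 250 bases before to 50 bases after each start) were in the table for 40 members, with 50 promoters; MYC, NOLC1, TCOF1, NOP58, DDX18, RRS1, RRP12 and BOP1 were not among them. CACGTG, which reads the same on both strands, was found in 17 of the 40 members (42.5%), in 8.77% of the 27305 genes of the table and in 12.9% of the 9605 tested genes in it. Among members it was present in 6 of 12 called lower (50%) and 11 of 28 not called (39.3%). The variant CACGCG, searched on both strands, was in 16 of the 40 (40%), in 13.5% of all genes of the table and in 22.7% of the tested genes. A match is a description of the sequence and not evidence of binding in these cells.

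For 15 of the 17 genes the E-box began within 40 bases of a start site, and for 12 it lay after the start. The following windows show it with 12 bases on each side, read 5′ to 3′ on the strand of the gene, with the E-box in capitals; the first 5 genes were called lower and the last 4 were not called.
FBL: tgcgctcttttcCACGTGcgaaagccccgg
MRTO4: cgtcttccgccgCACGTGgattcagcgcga
MYBBP1A: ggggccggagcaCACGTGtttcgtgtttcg
PES1: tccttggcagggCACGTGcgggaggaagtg
PNO1: ggtgcagctgcgCACGTGtttcagccggca
DDX21: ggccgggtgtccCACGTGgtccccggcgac
GNL3: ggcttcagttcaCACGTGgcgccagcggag
WDR43: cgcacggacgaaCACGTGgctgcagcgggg
UTP20: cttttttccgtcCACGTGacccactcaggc
In GRCh38.p14 the windows lie at chr19:39846356-39846385 (minus strand) for FBL, chr1:19251807-19251836 (plus) for MRTO4 and chr17:4555340-4555369 (minus) for MYBBP1A. Those of PES1 and PNO1 lie at chr22:30591880-30591909 (minus) and chr2:68157885-68157914 (plus). Those of DDX21, GNL3, WDR43 and UTP20 lie at chr10:68956604-68956633, chr3:52686026-52686055, chr2:28894658-28894687 and chr12:101280083-101280112, all on the plus strand. The bases around the E-box differ from gene to gene, and the same 6 letters stand near the start of genes that fell, such as FBL and MRTO4, and of genes that were not called, such as DDX21 and WDR43. In the libraries numbered 1, where MYC was high, the 17 members with an E-box had median deviations from their group mean near 0. These were -0.01 (untreated) and -0.05 (dexamethasone) on the log2 scale. Across these 17 members the deviation had a Pearson r with GC content of -0.65 in untreated and -0.87 in dexamethasone replicate 1. The medians therefore mix members that moved in opposite directions with GC content. The part of the MYC level in these values was not tested.

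The change of a member followed the GC content of its transcript. Across the 48 members log2 fold change and GC content had a Spearman rho of -0.76, and across all tested genes of -0.45; these are descriptions across genes, which share the same 8 libraries and are not independent replicates. All 21 members with a GC content of at least 50% had fold changes below 0, 11 of them called lower, with a median of -0.58; of all tested genes at such GC content 70.3% had fold changes below 0, 23.2% were called lower and 8.23% higher, and the median was -0.21. For the genes under 50% GC the share with fold changes below 0 was 31.9%. Of the 27 members under 50%, 5 were called lower (NOLC1, DKC1, DDX10, PNO1 and EBNA1BP2) and the median was 0.09, where 7.54% of such tested genes were called lower, 15.6% higher, and the median was 0.18. The role groups differed in median GC content. It was 55.8% for large-subunit assembly, 49.8% for RNA polymerase I transcription and 47.1% for the snoRNP core. For the multifunctional proteins it was 43.1%, and for the small-subunit factors 42.3%. The part of GC content in the differences between role groups was not tested.

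The libraries numbered 5 moved with GC content in both groups. Untreated replicate 5 was the highest well of its group, after scaling, for 21 of the 21 members of at least 50% GC and the lowest for 21 of the 27 below it. Dexamethasone replicate 5 was the highest of its group for 19 of the 21 and the lowest for 18 of the 27. The median deviation from the group mean was 0.44 and -0.47 on the log2 scale in untreated replicate 5 for the members above and below 50% GC, and 0.27 and -0.15 in dexamethasone replicate 5. Across the members the deviation of untreated replicate 5 had a Pearson r of 0.87 with GC content, given as a description, and that of dexamethasone replicate 5 of 0.73. Across all 12153 tested genes these values were 0.73 and 0.66. Of all tested genes, untreated replicate 5 was the highest well of its group for 5384 and the lowest for 5166. Dexamethasone replicate 5 was the highest for 5004 and the lowest for 4477, so the shift was not particular to the members.

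**Figure D3:**
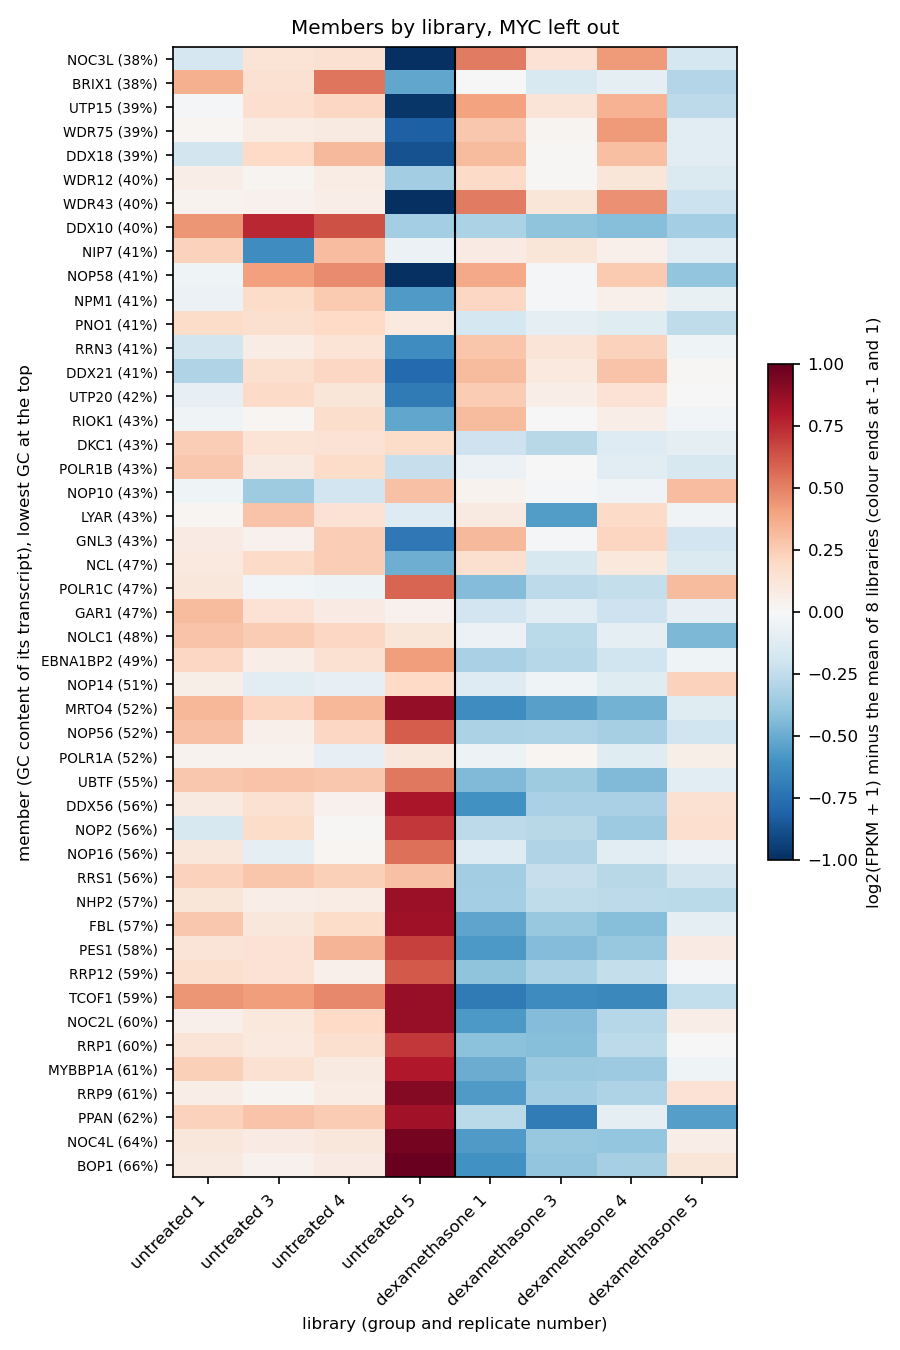
Deviation of each member (rows, MYC left out) from its mean over the 8 libraries on the log2(FPKM + 1) scale, ordered by GC content with the lowest at the top; columns are libraries by group and replicate number, and the colour ends at -1 and 1. Untreated replicate 5 is low at the top and high at the bottom of the map, and the treated wells are mostly below the untreated wells in the lower part, where the 21 members of at least 50% GC stand.

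With the GC trend of each library removed by a lowess curve, 24 of the 48 members (50%) were lower and 0 were higher, where 19.2% of the tested genes were lower and 18% higher. All 16 calls were kept, the median log2 fold change of the members was -0.31, and 38 were below 0 in place of 32. The members that were added to the called ones were BOP1, BRIX1, DDX56, GAR1, NHP2, NOC2L, NOC4L and POLR1B. With both libraries numbered 5 left out, and no removal of the trend, 26 members were lower and 1 higher, where 22.8% and 22.3% of tested genes were, and all 16 calls were kept. TCOF1 fell by 0.87 on the log2 scale after removal of the trend and POLR1A had a log2 fold change of 0.08. The removal also takes out any difference between the groups that follows GC content over all genes. The part of GC content in the differences between the groups was not tested beyond these values.

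**Figure D4:**
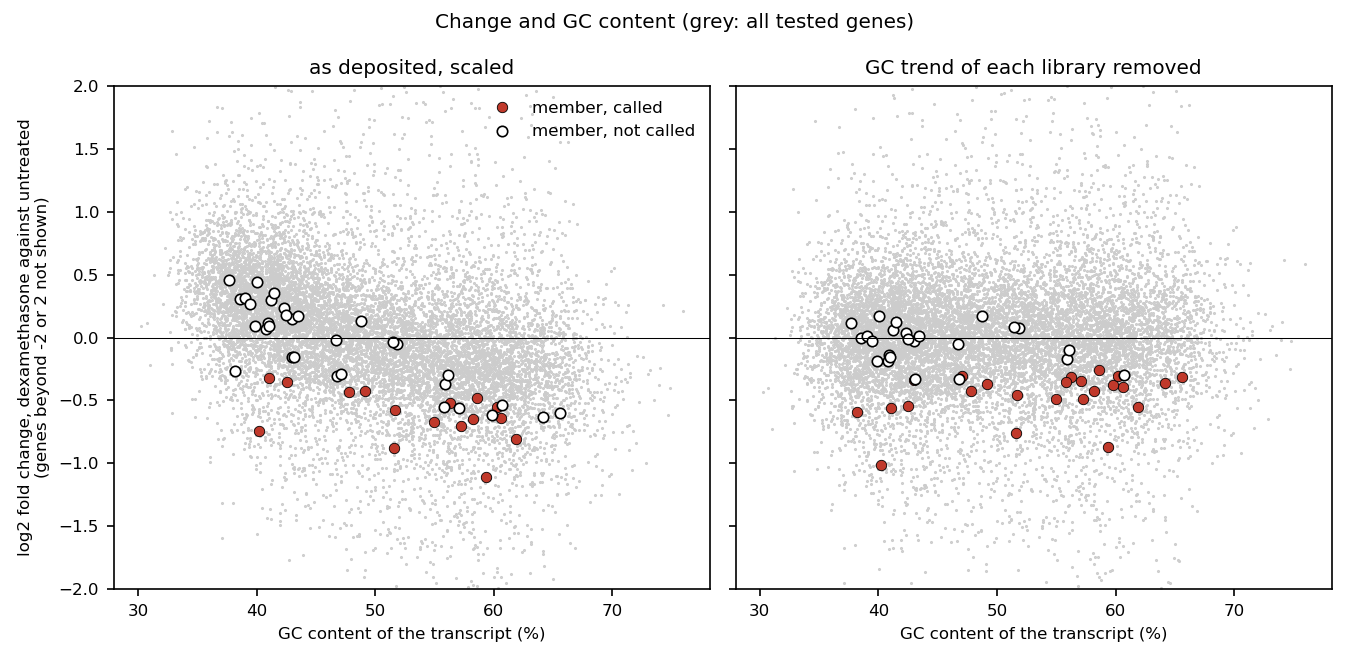
Log2 fold change (y axis, dexamethasone against untreated) against the GC content of the transcript in percent (x axis) for all tested genes (grey) and the 48 members (circles, filled in red where called), as scaled (left) and with the GC trend of each library removed (right). The removal takes out, by construction, the slope over all genes seen on the left. On the right 24 members are called, all below 0.

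The genes around the members were taken from lists of the same pathway that hold no member. Their counts stand beside 14.8% of all tested genes called lower and 12.2% higher. In the network of MYC partners and regulators 2 of 17 tested genes were lower (11.8%) and 1 higher, with a median log2 fold change of 0.01. AURKA, a mitotic kinase that also stabilises MYC proteins, was at 49.4 ± 9.36 FPKM in untreated and 21.8 ± 4.68 FPKM in treated wells (SD, n = 4; log2 fold change -1.16, adjusted p = 0.00253). MXD4, which competes with MYC for MAX, rose from 10.8 ± 1.63 to 21.6 ± 1.88 FPKM (SD, n = 4; log2 fold change 0.93, adjusted p = 0.00488). MXD3, of the same family, was the other gene called lower (log2 fold change -0.82, adjusted p = 0.0342; 0.0575 to 0.108 in the 6 of 8 omissions of 1 library that lost the call, all but untreated replicate 4 and dexamethasone replicate 5).

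Genes known as MYC targets outside the nucleolus were lower in 7 of 24 cases (29.2%) and higher in 0, with a median of -0.30. TERT, the telomerase reverse transcriptase, had 1.99, 1.80, 1.94 and 1.80 FPKM in untreated and 0.346, 0.398, 0.297 and 0.336 FPKM in treated replicates 1, 3, 4 and 5. These groups were wide apart (log2 fold change -1.11, SE 0.09, adjusted p = 1.85e-05), at a level where the added 1 of the log scale holds the fold change down. FKBP4, a cochaperone of steroid receptors, was at 92.7 ± 7.79 and 55.4 ± 5.54 FPKM (SD, n = 4; log2 fold change -0.75, adjusted p = 0.0117; 0.0513 to 0.0530 without dexamethasone replicate 1 or 3). The other 5 lower genes were SLC19A1, PA2G4, RCC1, CDK4 and CAD. Their calls were lost in 2, 3, 3, 5 and 7 of the 8 omissions of 1 library, in that order. Without both libraries numbered 1 none of these 5 was called (limma adjusted p 0.104 to 0.268).

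Further subunits and factors of RNA polymerase I were lower in 2 of 10 cases (20%; POLR1E, -0.68, adjusted p = 0.00189, and CD3EAP, -0.66, adjusted p = 0.0117, or 0.0503 without dexamethasone replicate 4), with a median of -0.07. Further small-subunit factors were lower in 5 of 41 (12.2%, below the share of all genes), with a median of -0.05, among them AATF (-0.60, adjusted p = 0.00667) and DHX37 (-0.72, adjusted p = 0.0125, or 0.0524 to 0.0531 without dexamethasone replicate 1 or 3). Further large-subunit factors were lower in 4 (9.52%, below the share of all genes) and higher in 2 of 42, with a median of -0.05. URB2 fell by 0.49 on the log2 scale (adjusted p = 0.00616), while SBDS, which releases the anti-association factor from late large subunits, rose from 22.1 ± 7.40 to 39.7 ± 6.31 FPKM (SD, n = 4; log2 fold change 0.86, adjusted p = 0.00994). EFL1, the GTPase that works with SBDS, rose too (log2 fold change 0.44, adjusted p = 0.0275; 0.0528 to 0.0869 without untreated replicate 1 or dexamethasone replicate 1, 4 or 5).

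Of 11 snoRNP assembly factors limma called 0, with 5 at an unadjusted p under 0.05. Of these 5, 4 were lower and 1, TAF9, was higher (log2 fold change 0.58). At that p 20.8% of all tested genes were lower and 18.5% higher. PIH1D1 (-0.50, limma adjusted p = 0.0569) and RUVBL1 (-0.50, limma adjusted p = 0.0577) came nearest to a call. RNA polymerase III, which makes transfer RNAs and the 5S ribosomal RNA, had 2 of 19 genes lower (10.5%, below the share of all genes), POLR3K (-0.82, adjusted p = 0.00180) and GTF3C5 (-0.55, adjusted p = 0.0435), with a median of -0.29. The GTF3C5 call was lost in every omission of 1 library but dexamethasone replicate 5 (adjusted p 0.0630 to 0.148). All 20 S-phase genes were lower, with a median of -1.09; the smallest p belonged to CDC45 (-1.51, adjusted p = 3.42e-05) and FEN1 (-1.28, adjusted p = 5.66e-05), a replication helicase factor and a flap endonuclease. CLSPN, RRM1, POLD3 and RFC2 of this list lost their calls in 1 to 6 of the 8 omissions of 1 library. The S-phase genes moved with the group in the same wells as the members, and their part in the result was not tested.

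**Figure D5:**
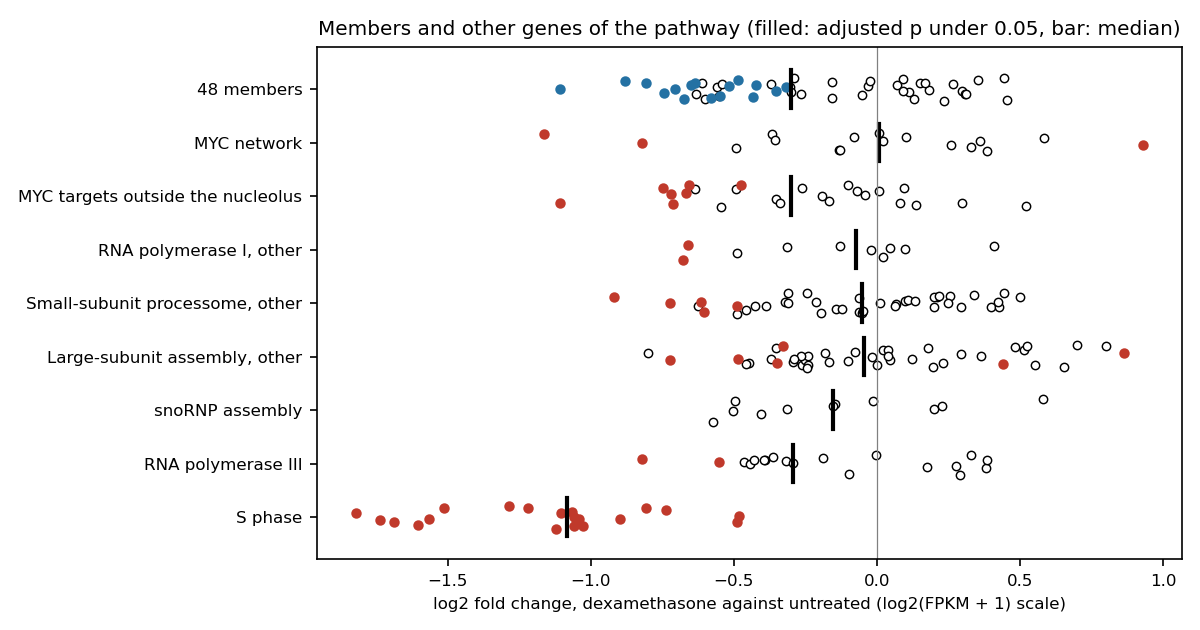
Log2 fold change (x axis, dexamethasone against untreated) of the 48 members (top, blue where called) and of the genes of 8 lists of the same pathway and of S phase (red where called), each point a gene with a random vertical offset and a black bar at the median. The members' median of -0.30 is close to that of the MYC targets outside the nucleolus (-0.30) and of RNA polymerase III (-0.29), and the S-phase list has a median of -1.09.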

How the data were processed

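Total RNA of 8 wells (4 untreated, 4 given dexamethasone) was sequenced with ribosomal RNA depletion and random priming per the labels' protocols. Per the series' design text, the authors used FastQC 0.11.9, Cutadapt 3.4, STAR 2.7.9a on GRCh38, featureCounts of Subread 2.0.3 and DESeq2 1.32.0. The deposited values are described as counts but are not whole numbers, and were read as FPKM, inferred from the values; neither the annotation release nor the strand setting is given in the sources used here. Whole fragment counts could not be recovered, so no count test was run. At the best depth tried, 41.2% to 46.8% of low values came within 0.1 of whole, against 20% by chance at a single depth.

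Scaling between libraries used a trimmed mean of M values. The test was limma 3.58.1 (R 4.3.3; lmFit, then eBayes with its trend and robust options) on log2(FPKM + 1). It was two-sided, had group alone as a term, and covered every gene that reached 0.5 FPKM in 4 or more libraries (3 where a library was left out). Printed FPKM are as deposited. The procedure was tested on simulated data. These had independent noise in each gene and no shift shared across a library, so they do not cover the shifts described above. The number of wells and their spread limit the precision.

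The members, role groups and lists were chosen with earlier results of these data known. In each role group the 3 members with the smallest p and the member with the largest p are given in every library; in each list the 2 genes with the smallest p are named. Other members given in full, and other list genes named, were chosen after their values were seen. GENCODE 44 supplied GC content, strand and overlaps; the deposited coordinates equal its own for 14 members and overlap them for all 48. Replicate numbers were checked for pairing and used only as an alternative. Other settings were another pseudocount, no filter, other scalings, plain eBayes, the GC trend removed and libraries left out.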

Additional observations from a re-analysis of the deposited data

Results flagged for a closer look

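In 13 of 96 groups of 4 wells (48 members in 2 treatments) a single well stood apart from the other 3 by Dixon's test. For independent groups chance gives about 1 in 20, or 4.8 of 96. These groups share the same 8 libraries and are not independent, so the counts do not measure an excess over chance. Of the 13 wells, 9 were untreated replicate 5. The test used FPKM as deposited, before scaling between libraries. The scaling factor, by which FPKM are divided, was 0.831 for untreated replicate 5 and 1.03 to 1.07 for the other untreated libraries.

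MYC was at 24.4 FPKM in untreated replicate 1, against 2.87 to 3.96 FPKM in the other untreated wells. In dexamethasone replicate 1 MYC was at 23.7 FPKM, against 3.94 to 4.12 FPKM in the other treated wells.

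Untreated replicate 5 was high for NHP2 (209.5 FPKM against 156 to 157), NOC4L (43.99 against 29.9 to 31.1), RRP9 (32.1 against 21.5 to 22.6) and BOP1 (125 against 82.2 to 85.3), whose transcripts have at least 50% GC. It was low for NOLC1 (40.5 FPKM against 55.6 to 57.6), DKC1 (28.1 against 35.1 to 36.4), WDR43 (8.61 against 23.4 to 25.1), WDR75 (5.24 against 12.4 to 13.7) and WDR12 (3.99 against 6.93 to 7.29), whose transcripts have less than 50% GC. After scaling, this well was no longer the lowest untreated well for DKC1, and for NOLC1 it lay nearer to the others.

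Dexamethasone replicate 5 was high for TCOF1, at 23.2 FPKM against 18.5 to 19.2 in the other treated wells. It was low for NIP7, at 14.6 FPKM against 18.4 to 19.0.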

How the results depend on the processing

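The 16 members called lower became 11 with median-of-ratios scaling, 13 without the filter, 19 without scaling, 16 with a pseudocount of 0.1 and 17 with plain eBayes. With single libraries left out there were 5 to 16 members called lower, 2 to 5 list genes called higher and 25 to 47 called lower, against 3 and 42 with all 8 libraries; the log2 fold change of MYC ran from -0.42 to 0.75. The members' median log2 fold change was -0.24 to -0.34 in all settings.

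Without both libraries numbered 5 there were 26 members lower and 1 higher, 5512 genes called, and 74 list genes lower and 9 higher. Without both libraries numbered 1 there was 1 member lower, with 1581 genes called and 20 list genes lower and 1 higher. With the GC trend removed 63 list genes were lower and 9 higher, and with the libraries numbered 5 also left out 26 members were lower, 5214 genes were called, and 71 list genes were lower and 12 higher. The PPAN call was lost in the last of these settings (limma adjusted p = 0.0941). Leaving out the libraries numbered 1, and removing the GC trend together with leaving out those numbered 5, were chosen after seeing the data. Fewer wells were tested where libraries were left out; beyond this, the cause was not tested.

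Same-numbered wells had correlations of 0.291, 0.066, 0.314 and 0.713 between their deviations from the group means, for numbers 1, 3, 4 and 5. The value was low for number 3, so the numbers were not taken to pair the wells. The libraries numbered 5 nevertheless shared a shift with GC content, and those numbered 1 shared a high MYC level. The fit without a block counts such shared variation as spread between wells. With the replicate number as a block 26 members were lower and 2 higher, 5769 genes were called, and 77 list genes were lower and 18 higher. With the block and the GC trend removed 26 members were lower, 5308 genes were called, and 74 list genes were lower and 12 higher.

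Fold changes of members near 0 that were not called with all 8 libraries changed sign in some settings. Of these, NPM1 was called lower with the GC trend removed and the libraries numbered 5 left out (limma adjusted p = 0.0422). With the GC trend removed, with or without the block, the log2 fold change was 0.076 for POLR1A, -0.14 for NOP58, -0.024 for NOP10, 0.084 for NOP14, -0.0057 for UTP15, -0.011 for RIOK1, -0.19 for WDR12, -0.024 for DDX18, -0.18 for NIP7 and -0.16 for NPM1. With the libraries numbered 5 also left out it was 0.065 for POLR1A, -0.26 for NOP58, 0.054 for NOP14, -0.069 for UTP15, -0.068 for UTP20, -0.052 for WDR75, -0.063 for RIOK1, -0.16 for WDR12, -0.12 for DDX18, -0.078 for NIP7, -0.23 for NPM1 and -0.058 for GNL3. Without the libraries numbered 5 alone it was -0.063 for NOP58 and -0.036 for NPM1, without those numbered 1 it was 0.054 for NOP14, and with median-of-ratios scaling it was 0.0051 for NCL. Over the omissions of 1 library it ran from -0.17 to 0.062 for NCL, -0.12 to 0.19 for NIP7, -0.11 to 0.049 for NOP14, -0.20 to 0.29 for NOP58, -0.065 to 0.20 for NPM1, -0.021 to 0.29 for GNL3 and -0.24 to 0.012 for LYAR.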
